A study of Homo sapiens with 4 samples.

Results

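The 10 genes described here encode AP-1 subunits and other immediate-early transcription factors. They are FOS, FOSB, FOSL2, JUN, JUNB, JUND, EGR1, EGR2, EGR3 and NR4A1, and their regions are the rows of the deposited enhancer tables whose gene name is one of these symbols. They held 21 of the 45672 regions in 4 tables, and 9 of the 10 are among the 13171 genes that the tables name. The cells were Kasumi-1, a human acute myeloid leukaemia line whose t(8;21) translocation makes the RUNX1-RUNX1T1 fusion. All carried CRISPR/Cas9, in 2 samples with a guide that targets nothing (sgNT, genotype given as WT) and in 2 with one that cuts SETD8 (sgSETD8, genotype given as SETD8 knockout). SETD8, gene symbol KMT5A, is the enzyme of H4 lysine 20 monomethylation. Nothing in the labels says whether the knockout cells were a clone or a pool, how long after the guide they were taken, or whether the samples of a group came from separate cultures. The profiled mark was acetylation of histone H3 at lysine 27 (H3K27ac), found at active enhancers and promoters, by CUT&Tag, in which an antibody brings a transposase to the marked chromatin. The sample titles and antibody labels name this mark, whereas the design text of the series names H3K27me1.

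AP-1 is a dimer of basic leucine zipper proteins. JUN proteins can pair with each other or with FOS proteins, whereas FOS proteins need a JUN partner, and the dimers bind a short palindromic site at many enhancers. Immediate-early genes are transcribed within minutes of a growth factor, stress or differentiation signal without new protein synthesis: kinases act on factors already bound at their promoters, among them SRF with its ternary complex partners, CREB and ATF proteins. In myeloid cells AP-1 and EGR factors are known for their part in monocyte and macrophage differentiation, and AP-1 is a known partner of the RUNX1-RUNX1T1 fusion in t(8;21) leukaemia.

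Each table lists regions on hg38 with the authors' signal, which is a density per bp multiplied by the length of the region. Shared naming of the regions sorts the tables into a sparse pair (5186 sgNT and 7276 sgSETD8 regions) and a dense pair (15149 and 18061). Which of the 2 samples of its group a table came from could not be resolved, and the identifiers of the sparse table read as sgNT name the cell line and no guide. No read counts were given, so depth is unknown. Signal was therefore compared between groups only as density within the dense pair, and ranks only within a table. With 2 tables against 2, the smallest 2-sided exact permutation p is 0.333, so no difference below could pass a threshold of 0.05 and none was tested. The tables list enhancer regions: narrow regions wholly within 2500 bp of a start site made up 0.825% to 2.12% of them, so a gene with no region may still carry acetylation at its promoter. Of 10 genes that mark t(8;21) myeloid cells, 5 and 7 had a region in the sparse sgNT and sgSETD8 tables and 8 and 9 in the dense ones. LYZ had none in the dense pair. In the order sparse sgNT, sparse sgSETD8, dense sgNT and dense sgSETD8, 0, 0, 3 and 3 of 6 T and NK cell genes had a region, 1, 2, 2 and 3 of 5 B cell genes, and 0, 0, 1 and 1 of 6 erythroid and megakaryocyte genes. Of 11 genes chosen as non-haematopoietic 1, 3, 2 and 2 did, with 1, 5, 3 and 5 regions. PECAM1 had 1, 3, 2 and 2 of these regions and CDH5 0, 0, 1 and 3. COL1A2 and KRT18 had 1 each in sparse sgSETD8 only, and the rest, among them ALB, AFP, KRT8 and CDH1, were at 0 in all 4 tables. The part of these counts in the results was not tested.

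The start sites of JUN, JUNB and JUND lay inside a dense sgNT region, and only that of JUNB also inside a dense sgSETD8 region, so the 250 bases before these starts are shown. Sequences and start sites are from RefSeq (GRCh38.p14), where 9 of the 10 genes have a promoter entry. Capitals mark a match to TGACGTCA, the cyclic AMP response element to which CREB, ATF and some JUN dimers bind, or to TGACATCA, a close variant that was added after the other motifs had been searched. JUNB has no match to either.

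JUN, chr1:58784048-58784297, minus strand: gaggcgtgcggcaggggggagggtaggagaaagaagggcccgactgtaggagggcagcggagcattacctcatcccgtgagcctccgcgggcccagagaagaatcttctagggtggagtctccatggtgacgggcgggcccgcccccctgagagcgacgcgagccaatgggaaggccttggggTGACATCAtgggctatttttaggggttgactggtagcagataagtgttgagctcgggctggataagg
JUNB, chr19:12791236-12791485, plus strand: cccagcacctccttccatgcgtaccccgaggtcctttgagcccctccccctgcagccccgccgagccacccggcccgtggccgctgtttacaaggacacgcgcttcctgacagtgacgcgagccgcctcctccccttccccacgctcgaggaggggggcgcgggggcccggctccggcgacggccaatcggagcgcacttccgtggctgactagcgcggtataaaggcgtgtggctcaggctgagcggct
JUND, chr19:18281623-18281872, minus strand: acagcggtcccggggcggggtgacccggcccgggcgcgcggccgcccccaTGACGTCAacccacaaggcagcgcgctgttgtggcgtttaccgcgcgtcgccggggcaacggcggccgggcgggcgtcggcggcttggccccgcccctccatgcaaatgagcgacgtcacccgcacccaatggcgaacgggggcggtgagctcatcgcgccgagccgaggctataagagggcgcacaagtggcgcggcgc

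The JUN match lies 67 to 60 bases before the start and the JUND match 200 to 193 bases before it. Over 35114 promoter windows of 250 bases, 2.38% hold TGACATCA and 1.65% hold TGACGTCA on either strand. A CArG box, the SRF site, was found in the windows of EGR1 (105 to 96 and 83 to 74 bases before the start) and EGR2 (71 to 62 bases before one of its 3 listed starts), against 1.16% of all windows. None of the 9 genes has a match to TGAGTCA (AP-1, 4.20% of windows), TGTGGT (RUNX, 11.0%), CCGGAAGT (ETS, 3.42%), GCGTGGGCG (EGR, 0.721%) or AAAGGTCA (the NR4A element, 1.05%), which says only that these letters are not in these windows. The matches do not overlap each other. GC content was 62% before JUN, 70.8% before JUNB and 74.8% before JUND, beside a median of 58% over all windows. A match is a description of the reference sequence, not a measured site.

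The 10 genes had few regions, and those regions were spread over both groups. The sparse tables assigned 3 regions to them in sgNT and 3 in sgSETD8, and the dense ones 8 and 7, a mean difference of -0.5 ± 0.71 regions (SD, n = 2 pairs). This makes up 0.0578%, 0.0412%, 0.0528% and 0.0388% of the sparse sgNT, sparse sgSETD8, dense sgNT and dense sgSETD8 tables. NR4A1 had no region in any table, no gene had one in every table, and 9 had at least 1. At least 1 region was assigned to 3 of the 10 in sparse sgNT, where 14.9% of 20037 protein-coding genes had one, and to 3 in sparse sgSETD8, where 18% did. It was assigned to 4 in dense sgNT and 6 in dense sgSETD8, where 33% and 36.2% of genes had one. In a set of 10, 1 gene more or fewer moves such a share by 10 percentage points.

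In the sparse pair FOSB, JUND and EGR2 had more regions in sgSETD8 (12.5% of genes did), FOSL2, JUNB and EGR3 had fewer (9.42%), and 4 genes had none. The sparse tables did not list called peaks alike. By the peak numbers in the identifiers, regions held 39.5% of called peaks in sparse sgNT (6026 of 15260). In sparse sgSETD8 they held 71.5% (8029 of 11223), and in dense sgNT and sgSETD8 77.1% and 79.4%. A gene without a sparse region may thus have had a called peak. The part of this in the sparse counts was not tested. In the dense pair JUND and EGR3 had more (14.7% of genes) and FOSL2 had fewer (8.55%), 3 had equal numbers and 4 had none. The median difference was 0 in both pairs, as over all genes. JUND was higher in sgSETD8 and FOSL2 lower in both pairs, whereas EGR3 went in opposite directions. In the dense pair the counts for JUND, FOSL2 and JUNB depended partly on region borders and on which neighbour a region was assigned to. In the sparse pair the nearest region of the other table was not close. It lay 12448 bp away for JUND, 44447 bp for FOSL2 and 119971 bp for JUNB.

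**Figure D1:**
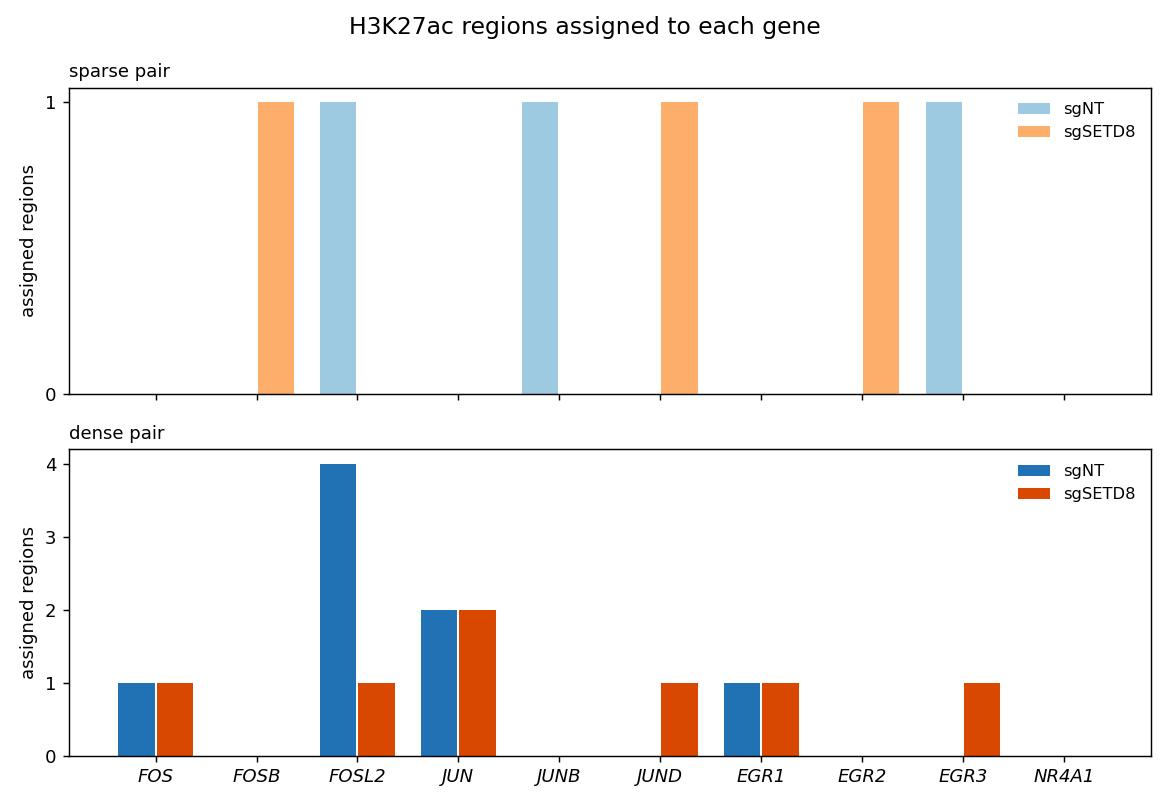
Number of H3K27ac regions assigned to each of the 10 genes (x axis) in the sparse pair (top) and the dense pair (bottom), with sgNT in blue and sgSETD8 in orange. The highest bar is FOSL2 in dense sgNT with 4 regions, and NR4A1 has none in any table.

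JUN, the founding AP-1 subunit, showed the largest difference in density among the overlapping dense regions assigned to the 10 genes. In dense sgNT a region of 11495 bp (chr1:58773305-58784799) covered the whole gene and its start and ran from 0.752 kb upstream to 10.7 kb downstream of the start. Its authors' density was 0.709 per bp, and it ranked 2851 of 15149. In dense sgSETD8 the overlapping region had 7512 bp (chr1:58773395-58780906), a density of 0.177 per bp and rank 8446 of 18061. Both regions join 2 peaks and have almost the same downstream border. The sgSETD8 region stops 3141 bp short of the start site and covers 116 bp of the gene, or 3.56% of it, so the acetylated region over the promoter and body of JUN was listed in sgNT and not in sgSETD8.

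The density at this JUN region was 3.99-fold lower in sgSETD8, a log2 ratio of -2.00. Over the 6011 pairs of dense regions with mutual cover of 50% or more, the median log2 ratio was -0.27 with a spread of 0.30 (SD between regions, which is no replicate error). After subtraction of that median JUN stood at -1.73, the lowest of the 6011, where the 5th and 95th percentiles were -0.51 and 0.48. The regions differ in extent, and the average over a longer region need not be that of its shared part. If the shared 7512 bp had the sgSETD8 density in both tables, the remaining 3983 bp of the sgNT region, which hold the gene and promoter, would average 1.71 per bp, a density that 3.78% of dense sgNT regions reach. This is arithmetic on an assumption and no measurement. It leaves out the median shift of -0.27 and sets part of a region against averages over whole regions. The shared part and the remainder were not measured separately. With depth unknown and 1 table per group, a fall in acetylation at JUN is not shown by these values. Were there one, a bulk profile could not tell fewer acetylated cells from less acetylation per cell.

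Around JUN the other listed regions differed less. A second region assigned to JUN, 28.3 kb downstream of the start, had 379 bp and 0.927 per bp in sgNT (chr1:58755322-58755700) and 1335 bp and 0.618 per bp in sgSETD8 (chr1:58754366-58755700). A region assigned to LINC01135, 25.2 kb upstream in sgNT, had 0.877 per bp there and 0.484 per bp in sgSETD8. All 3 overlapping pairs at the JUN locus thus had the lower density in sgSETD8. After subtraction of the median the outer pairs stood at -0.32 and -0.59, and they cover each other by less than 50%. The sparse pair cannot speak to JUN: upstream of the start its nearest region lay 509 kb away in sgNT and 188 kb away in sgSETD8.

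Region identifiers carry the number of the peak they start from, and these numbers rise along the chromosome in 100% of steps, so a skipped number is a peak that was called and not listed in a region. Around the JUN start in dense sgNT no number was skipped within 53.5 kb. In dense sgSETD8 1 number was skipped within 129 kb, so at most 1 peak was called there outside the listed regions. This stretch includes the JUN start, so a peak called at the start without a listed region was possible. This reading was added after the data had been seen.

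**Figure D2:**
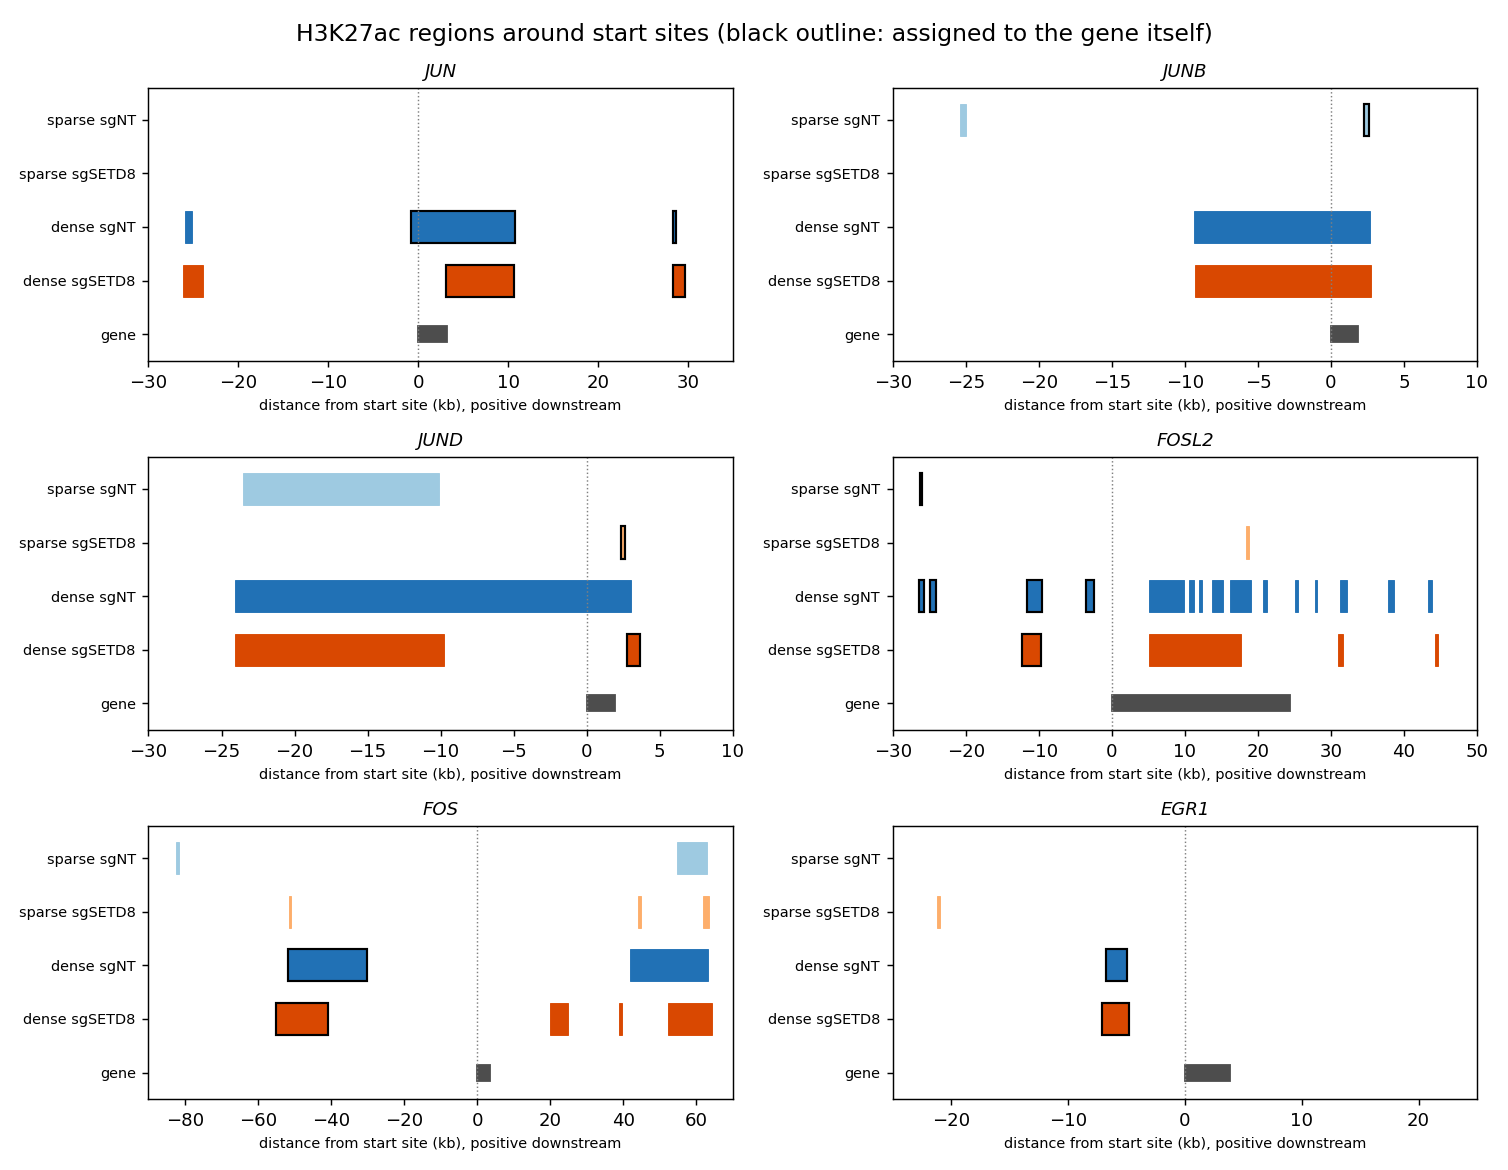
Position of H3K27ac regions in the 4 tables around 6 genes, by distance from the start site in kb (positive downstream), with the gene as a grey bar and a black outline where the region is assigned to the gene itself. The dense sgNT region at JUN and the one at JUND cross the start, the sgSETD8 regions there do not, and at JUNB both cross it.

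JUNB, which often restrains proliferation where JUN promotes it, had 1 assigned region in all: a 343 bp region in sparse sgNT (chr19:12793743-12794085) with 5.20 per bp and rank 1496 of 5186. It is annotated to the transcription termination site, 2.26 kb downstream of the start. The dense tables assign no region to JUNB, yet in both a region over the entire gene and its start was listed under the microRNA gene MIR5684. It had 12035 bp and 1.10 per bp in sgNT (chr19:12782102-12794136, rank 1799) and 12113 bp and 0.895 per bp in sgSETD8 (chr19:12782151-12794263, rank 1925). These cover each other by over 90%, and their log2 ratio was -0.30, or -0.04 after subtraction of the median of the 1769 regions that do so (SD 0.24). Acetylation over JUNB was therefore present in both dense tables with nearly the same borders, and the sparse sgNT region lies inside both.

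JUND, the subunit with the steadiest expression of the JUN family, was counted as higher in sgSETD8 in both pairs. In sparse sgSETD8 a 280 bp region (chr19:18278994-18279273) at its termination site had 6.15 per bp and rank 618 of 7276. In dense sgSETD8 an 846 bp region (chr19:18277994-18278839) had 0.694 per bp and rank 11419, 2.78 kb downstream of the start. In dense sgNT the same place was the end of a region of 27122 bp (chr19:18278588-18305709, 0.513 per bp, rank 1707) that covers JUND and its start and is listed under MIR3188. The count for JUND was thus higher in dense sgSETD8 while the listed cover of its gene was 100% in sgNT and 0% in sgSETD8. Around the start, 7 peak numbers were skipped within 204 kb in dense sgNT and 10 within 296 kb in dense sgSETD8, so peaks called at JUND without a listed region were possible.

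Upstream of JUND the MIR3188 region persisted in sgSETD8 with other borders, from 9.76 to 24.1 kb upstream (chr19:18291385-18305677, 0.428 per bp). Its log2 ratio against the long sgNT region was -0.26, or 0.01 after subtraction of the median. A region of 13414 bp at nearly the same place (chr19:18291721-18305134) ranked 156 of 5186 in sparse sgNT, and sparse sgSETD8 listed no region there. In the 33.0 kb above the sparse sgSETD8 region at JUND 1 peak number was skipped.

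The promoter windows of 3 of the 10 genes (JUN, JUNB and JUND) lay inside a dense sgNT region, where 8.97% of 15843 protein-coding genes had this, and that of 1 (JUNB) inside a dense sgSETD8 region, where 10.5% did. JUN and JUND had it in sgNT alone, as did 2.21% of genes. None of the 10 had it in sgSETD8 alone, as did 3.76% of genes. These counts rest on 1 table per group, and no sparse region held any of the 3 start sites.

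FOS, the partner that JUN proteins need for the classic AP-1 dimer, had no region over its gene in any table. Its assigned regions were intergenic and far upstream: 21614 bp with 5 peaks in dense sgNT (chr14:75227135-75248748, 30.1 to 51.7 kb upstream, 0.338 per bp, rank 3083) and 14235 bp with 3 peaks in dense sgSETD8 (chr14:75223701-75237935, 40.9 to 55.1 kb upstream, 0.294 per bp, rank 4577). They share 10801 bp. The log2 ratio was -0.20, or 0.07 after subtraction of the median of regions with 50% mutual cover, so the 2 groups had like density here and differed in extent. These densities were low for the tables: 95.4% of dense sgNT regions were at or above the sgNT value by rank. A 323 bp region of sparse sgSETD8 inside both (chr14:75227257-75227579) was assigned to TMED10.

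Downstream of FOS all 4 tables listed a region under LINC01220 that ranked higher than the upstream one. It ran from 41.8 to 63.3 kb downstream in dense sgNT (chr14:75320607-75342125, 0.752 per bp, rank 1459) and from 52.3 to 64.4 kb in dense sgSETD8 (chr14:75331162-75343210, 0.844 per bp, rank 2066). In the sparse pair it ranked 197 of 5186 in sgNT (chr14:75333674-75341788) and 330 of 7276 in sgSETD8 (chr14:75340817-75342306). In dense sgSETD8 further regions stood 20.0 and 39.0 kb downstream. FOS was the one gene of the 10 with a region at a common place, within 100 kb of its start, in every table, and that place was assigned to another gene.

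FOSB, a FOS paralogue that is strongly induced by signals, had 1 region, in sparse sgSETD8 (chr19:45470174-45470888). It lies in intron 1 of 2, 2.18 to 2.89 kb downstream of the start, has 715 bp and 3.07 per bp, and ranked 487 of 7276, the best share of a table reached by any region of the 10 genes. The nearest dense regions were 43748 bp away in sgNT and 43957 bp away in sgSETD8. In the 94.8 kb and 95.1 kb around the FOSB start that hold no dense region, 3 and 6 peak numbers were skipped, and 2 were skipped within 28.8 kb in sparse sgNT. Peaks called close to FOSB without a listed region were therefore possible in all 3 other tables, and whether acetylation at FOSB differed cannot be read from these lists.

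FOSL2, which encodes FRA2, had the most regions of the 10: 1 in sparse sgNT, 0 in sparse sgSETD8, 4 in dense sgNT and 1 in dense sgSETD8. The strongest in dense sgNT stood 9.50 to 11.7 kb upstream (chr2:28381188-28383354, 2167 bp, 1.35 per bp, rank 5564), and the dense sgSETD8 region lay at the same place (chr2:28380523-28383228, 2706 bp, 0.774 per bp, rank 6886). The log2 ratio was -0.81, or -0.54 after subtraction of the median, and 4.08% of the 6011 matched regions were as low or lower. Here the sgNT region holds 1 peak and the sgSETD8 region joins 2, so the densities are averages over regions of unlike make-up. The part of this in the ratio was not tested. Another dense sgNT region 25.8 to 26.4 kb upstream (chr2:28366457-28367071, 1.43 per bp) contained the sparse sgNT region (chr2:28366534-28366835, 1.35 per bp, rank 4017). The remaining dense sgNT regions had 0.781 per bp at 24.0 kb and 0.721 per bp at 2.45 kb upstream, the latter in an intron of FOSL2-AS1.

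The difference between 4 and 1 in the dense pair came with a difference in joining. All 4 FOSL2 regions of dense sgNT carry the identifier of a single peak without the mark of joining, as do 13.5% of that table. Within 100 kb of the FOSL2 start 15 of 19 dense sgNT regions were of this kind, and 0 of 6 in dense sgSETD8. Over and beyond the gene 11 sgNT regions and 3 sgSETD8 regions were listed under FLJ31356, an alias of FOSL2-AS1 by its gene ID. A 12618 bp sgSETD8 region of 5 peaks (chr2:28397966-28410583, 0.725 per bp) stood where sgNT listed 5 single peaks. Of the FOSL2 gene 44.4% was covered in sgNT and 51.6% in sgSETD8, and the cover within 100 kb was 42.5 and 38.4 kb. A joined region also counts the gaps between its peaks, so these extents are not like for like. The regions assigned to FOSL2 itself covered 4.70 and 2.71 kb. The dense sgNT regions 25.8, 24.0 and 2.45 kb upstream lay 13452, 11703 and 6108 bp from any dense sgSETD8 region. With regions merged within 10000 bp the dense difference for FOSL2 was still -1. The start itself was in no region: dense sgNT skipped 2 peak numbers between 2.45 kb upstream and 5.13 kb downstream of it.

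EGR1, a zinc finger factor of the SRF-driven first wave, had 1 region in each dense table and none in the sparse ones. The sgNT region (chr5:138458716-138460500, 1785 bp) had 0.908 per bp and rank 7229, and the sgSETD8 region around it (chr5:138458407-138460709, 2303 bp) had 1.06 per bp and rank 6323. It begins 4.98 kb upstream of the start in sgNT and 4.77 kb in sgSETD8. The log2 ratio was 0.22, or 0.49 after subtraction of the median, and 4.86% of matched regions were as high or higher. The sgNT region joins 2 peaks and the sgSETD8 region holds 1, so the densities are averages over regions of unlike make-up. The part of this in the ratio was not tested. EGR1 was the one matched region of the 10 genes with the higher density in sgSETD8. Within 100 kb of the start the cover was 13.3 kb in dense sgNT and 34.8 kb in dense sgSETD8, and 24802 bp of the latter belonged to a region listed under ETF1 that had 3245 bp in sgNT.

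EGR2, best known for its part in myeloid and Schwann cell differentiation, had a single 274 bp region in sparse sgSETD8 (chr10:62871759-62872032). It stood 52.6 kb upstream in an AluSx1 repeat, with 0.659 per bp and rank 6212 of 7276, near the bottom of the table. No other table listed anything within 100 kb of the start listed first. EGR3, a target and relative of EGR1, had a 418 bp region in sparse sgNT (chr8:22715653-22716070, 1.03 per bp, rank 3899) and a 619 bp region in dense sgSETD8 (chr8:22715620-22716238, 0.983 per bp, rank 11287). They overlap in intron 6 of 6 of PEBP4, 22.1 kb upstream of EGR3. The same element was thus listed once for each group, in opposite directions in the 2 pairs.

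NR4A1, an orphan nuclear receptor that is induced with the EGR genes and, together with NR4A3, restrains myeloid leukaemia in mice, had no assigned region. The nearest large dense region, listed under ACVR1B, ended 47.5 kb upstream of the first listed start in sgNT (0.544 per bp) and 45.9 kb upstream in sgSETD8 (0.478 per bp). These cover each other by over 90%, with a log2 ratio of -0.19, or 0.08 after subtraction of the median. The dense sgNT and sgSETD8 tables each had 2 regions within 100 kb, with 21.2 and 23.9 kb of cover.

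At 90% mutual cover none of the regions assigned to them could be matched between the groups, and at 50% 3 could: JUN at -1.73, FOSL2 at -0.54 and EGR1 at 0.49. JUN and FOSL2 lay outside and EGR1 just outside the central 90% of all matched regions, whereas the matched regions assigned to other genes in the density plot lay inside it: -0.03 over JUNB, 0.01 upstream of JUND, 0.08 upstream of NR4A1 and -0.24 upstream of FOSL2. Further matched neighbours stood at 0.44 (LINC01220, downstream of FOS) and at 0.17, 0.28 and 0.22 (ERCC1, VASP and OPA3, around FOSB). In sgNT and sgSETD8 the matched regions held 2 and 2 peaks at JUN, 1 and 2 at FOSL2, and 2 and 1 at EGR1. The dense pair is 1 table per group, so these log2 ratios have no replicate error.

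**Figure D3:**
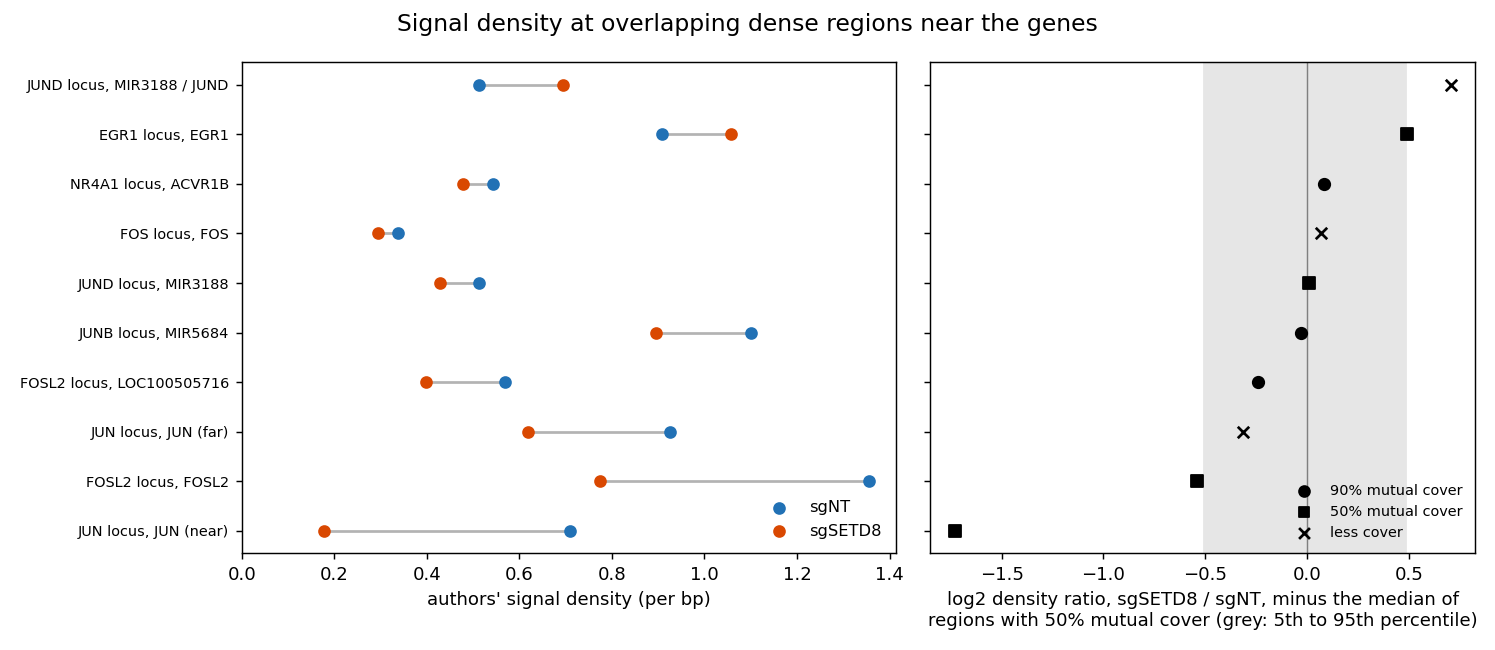
Left, authors' signal density per bp in dense sgNT (blue) and dense sgSETD8 (orange) at 10 overlapping region pairs near the genes, named by locus and by the gene each region is assigned to; near and far are the JUN regions over the gene and 28.3 kb downstream. Right, the log2 ratio minus the median of 6011 regions with 50% mutual cover, with the symbol giving the mutual cover; the JUN region over the gene stands at -1.73, left of the grey band from -0.51 to 0.48.

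Counting every region within 100 kb of the start sites, whatever gene it was assigned to, gave 93 regions, of which 72 were listed under another gene. Of 14 regions that overlap one of the 10 genes, 11 were listed under another gene, and 6 of these were dense sgNT regions over FOSL2 listed under FLJ31356. The like shares over all genes were not computed, so these counts are not read as particular to the 10 genes. By the start listed first, 7 of the 10 genes had a region within 100 kb in sparse sgNT (41.1% of 15843 genes) and 6 in sparse sgSETD8 (44.3%), and 9 in dense sgNT (68.2%) and 9 in dense sgSETD8 (72.5%). From the same starts, the covered length had medians of 0.441 kb in sparse sgNT and 0.274 kb in sparse sgSETD8, where the median over all genes was 0. In dense sgNT and sgSETD8 it was 13.6 and 18.5 kb, where all genes had 2.43 and 4.05 kb. The median of the 10 was thus above that of all genes in each table, although EGR2 and EGR3 in dense sgNT, and these with FOSB in dense sgSETD8, lay below the median of all genes. The upper quartile over all genes in the dense pair was 19.1 and 21.5 kb.

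By covered length in dense sgNT the order was FOS (43.1 kb), FOSL2 (42.5 kb), JUND (27.6 kb), NR4A1 (21.2 kb), JUN (13.9 kb), EGR1 (13.3 kb), JUNB (12.0 kb), FOSB (2.88 kb), EGR3 (0.361 kb) and EGR2 (0 kb). In dense sgSETD8 FOSL2 (38.4 kb), EGR1 (34.8 kb) and FOS (32.0 kb) led. FOS was furthest below its sgNT value there (43.1 against 32.0 kb) and EGR1 furthest above it. In the sparse pair JUND had 14.2 kb in sgNT and 0.572 kb in sgSETD8, and FOS had 8.42 and 2.09 kb. By this measure 4 genes (FOS, FOSB, FOSL2 and JUND) were lower in sgSETD8 in both pairs. EGR1 was higher in both (0.464 and 0.548 kb in the sparse pair). Some of these differences were small (FOSB 2.88 and 2.52 kb in dense sgNT and sgSETD8, FOSL2 0.302 and 0.274 kb in sparse sgNT and sgSETD8). The share of all genes with such a direction in both pairs was not computed. These counts are therefore not read as particular to these genes.

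**Figure D4:**
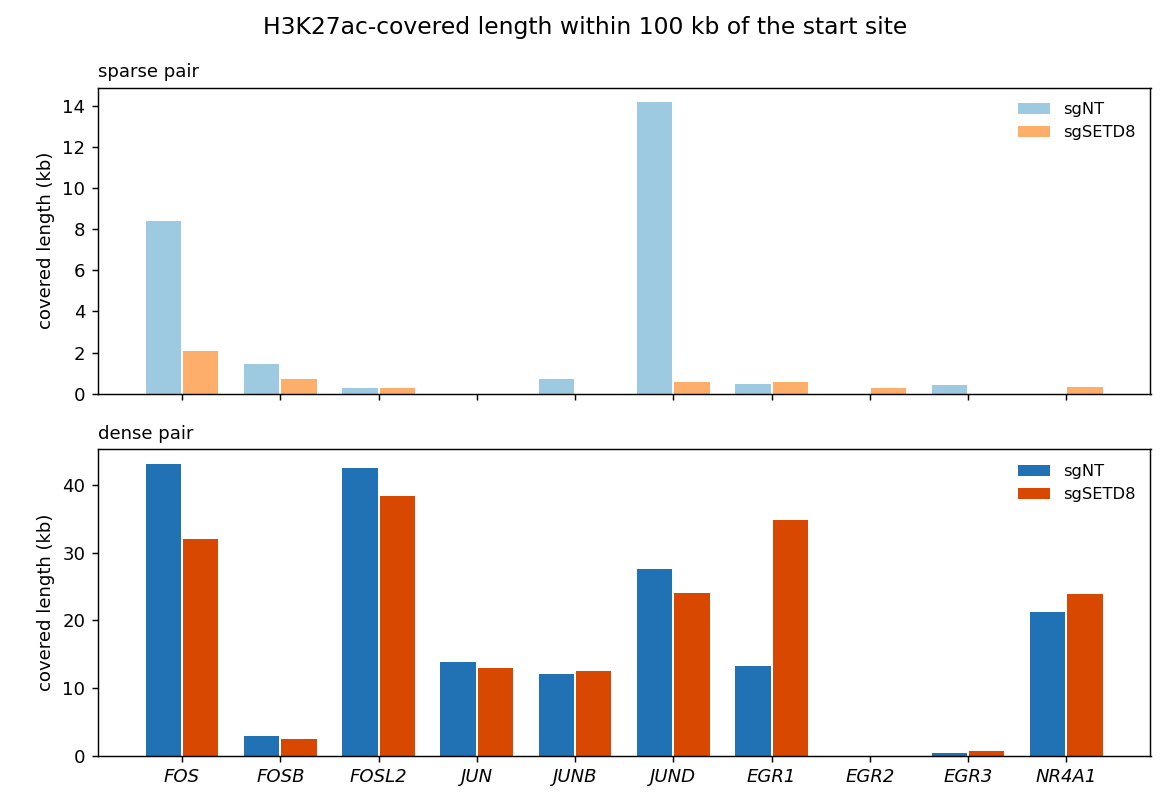
Length covered by H3K27ac regions within 100 kb on either side of any listed start site (kb; the sparse sgSETD8 bar of NR4A1 lies near its second start), for each of the 10 genes in the sparse pair (top) and dense pair (bottom; the y axes differ), with sgNT in blue and sgSETD8 in orange. The highest bars are FOS and FOSL2 in dense sgNT (43.1 and 42.5 kb). FOS and JUND are among the genes that are lower in sgSETD8 in both pairs, and EGR1 and NR4A1 are higher in both. The like shares over all genes were not computed.

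By type, 15 of the 21 regions were annotated as intergenic, 4 as intronic and 2 as termination sites. Of the 21, 3 overlapped the gene they were assigned to. No like shares over all regions of the tables are given, so these counts are not read as particular to these genes. The deposited annotation and distance describe the middle of a region, which is why the region over the whole of JUN is called intergenic. Widths had medians of 343 and 280 bp in sparse sgNT and sgSETD8 (512 and 341 bp over all regions) and 1427 and 2303 bp in dense sgNT and sgSETD8 (1515 and 1499 bp). Of the sparse regions 0 of 3 in sgNT and 0 of 3 in sgSETD8 overlapped the other table of the pair, where 20.9% and 14.9% of all regions did. Of the dense ones 5 of 8 in sgNT and 6 of 7 in sgSETD8 did, against 77.3% and 66% of all regions. Overlap with a table of the other pair was found for all 3 sparse sgNT regions, 1 of 3 sparse sgSETD8 regions, 2 of 8 dense sgNT regions and 2 of 7 dense sgSETD8 regions. The share over all regions was not computed for overlap across pairs, so these counts are not read as a difference between the groups.

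**Figure D5:**
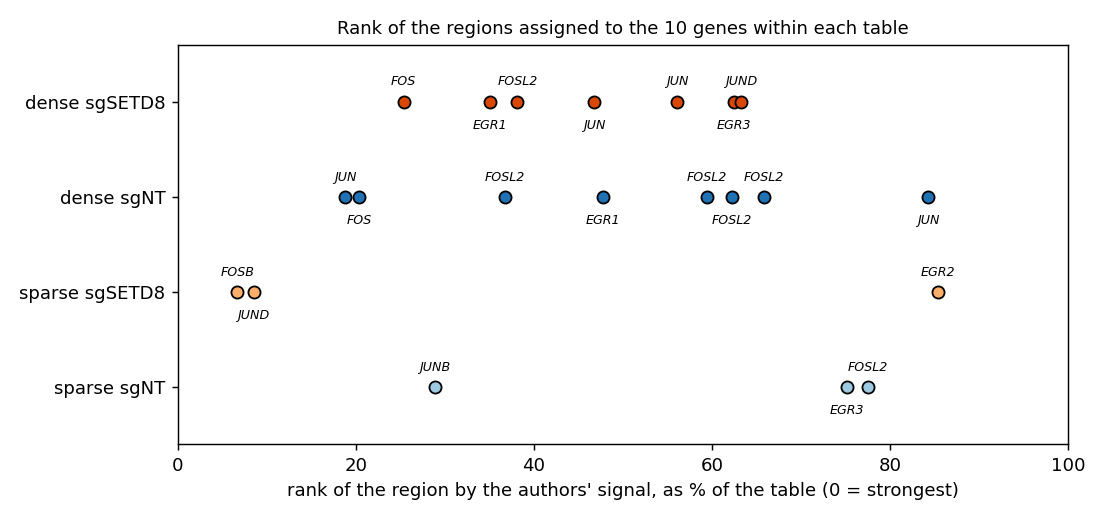
Rank of each of the 21 regions by the authors' signal, as a percentage of its table (0 is the strongest region), with 1 row per table. FOSB (6.69%) and JUND (8.49%) in sparse sgSETD8 rank best, and no dense region ranks better than 18.8%.

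Over all genes, 12.5% had more and 9.42% had fewer regions in sgSETD8 between the sparse tables, and 14.7% and 8.55% between the dense ones, the shares against which the counts below are to be read. Among 13 other AP-1 zipper genes 1 had more and 3 had fewer regions between the sparse tables, and 2 and 4 between the dense ones. JDP2, a repressor that dimerises with JUN, had 1 and 1 sparse and 4 and 2 dense regions in sgNT and sgSETD8, and BATF3, a partner of JUN in dendritic cells, had 1 and 0 sparse and 1 and 3 dense ones. MAF, a large zipper factor, had 2 in sparse sgSETD8 and none elsewhere, and ATF7, a relative of ATF2, had 1 and 0 sparse and 2 and 2 dense ones. The 13 genes together had 6 and 5 sparse and 13 and 11 dense regions.

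Upstream, the 17 CREB and ternary complex regulators had 17 and 12 sparse and 40 and 41 dense regions, with 3 genes more and 6 fewer between the sparse tables and 5 and 4 between the dense ones. ELK4, a ternary complex factor, had 1 region in each sgSETD8 table and none in sgNT. MEF2A, a MADS box factor, had 4 and 2 sparse and 7 and 5 dense regions, MRTFA, an SRF coactivator, 2 and 0 and then 2 and 4, and CRTC3, a CREB coactivator, 1 and 0 and then 2 and 1. Among 16 kinase genes 1 had more and 1 fewer between the sparse tables, and 5 and 2 between the dense ones. MAPK9, which encodes the JUN kinase JNK2, had 1 region in each sgSETD8 table and none in sgNT. RPS6KA3, a kinase downstream of ERK, had 3 and 1 sparse and 3 and 6 dense regions, and MAP2K4, which activates JNK, 0 and 0 and then 0 and 2.

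Of 36 other immediate-early genes, 6 had more and 3 fewer regions in sgSETD8 between the sparse tables, and 9 and 2 between the dense ones, from 20 to 25 and from 44 to 51 regions. CCN2, a secreted matrix protein, had 1 region in each sgSETD8 table and none in sgNT. KLF6, a zinc finger factor, had 0 and 4 sparse and 3 and 3 dense regions, KLF2 2 and 0 and then 2 and 3, and GADD45B, a stress response gene, 0 and 2 and then 1 and 1. Of the 15 feedback genes, which dampen the same pathway, 2 had more and 6 fewer in the sparse pair (15 to 6 regions) and 5 more and 2 fewer in the dense pair (37 to 47). SPRY1, an inhibitor of receptor signalling, had 2 and 0 sparse and 4 and 9 dense regions, DUSP6, an ERK phosphatase, 2 and 0 and then 5 and 6, TNFAIP3 2 and 0 and then 1 and 3, and NAB1, a corepressor of EGR1, 3 and 1 and then 5 and 4. The median difference of every group was 0 in both pairs.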

How the data were processed

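Each of 4 Kasumi-1 samples, 2 sgNT and 2 sgSETD8, gave a CUT&Tag library for H3K27ac from 100000 cells, per the labels. The submitters' processing notes name cutadapt, Bowtie2 and hg38 without versions. What called, stitched and annotated the peaks is not given in the sources used here. Stitched regions in the 4 deposited tables have 1 value, the authors' signal: in 100% of regions it equals the length times a density with up to 4 decimals, and its scaling is not stated. Tables were assigned to groups by the guide in their region identifiers, except the sparse sgNT table, whose identifiers name the cell line and no guide, and 0 value columns lacked a group. Depth is unknown.

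Regions were counted per gene name. Overlaps needed 1 bp, and density was compared in the dense pair at 90% or 50% mutual cover, minus the median log2 ratio. Background shares are over protein-coding genes or all regions. Start sites came from a RefSeq table (GRCh38.p14), for EGR3 from the gene table and the deposited distances, and motifs were searched on both strands. All 10 genes are named, with up to 4 genes of each of 5 related lists: first those with regions in 1 group only in both pairs, then those with the largest differences. A gene taken by this rule is not reported here. The 10 genes and the lists were chosen with earlier results of these data known. The interval code was tested on simulated data. Python 3.11.15, numpy 2.4.6, pandas 2.3.3 and matplotlib 3.10.9 were used.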

Additional observations from a re-analysis of the deposited data

How the results depend on the processing

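The mean difference in assigned regions, -0.5 per table (sgSETD8 minus sgNT), ranged from -1 to 0 when either pair was left out. It was 0.5 with regions of at least 500 bp, 0.5 with regions of a gene merged within 10000 bp, -6.5 with any region within 100 kb of the start and -1.5 with constituent peaks, so its direction is not settled. The difference in genes with a region, 1 in all, ranged from 0 to 2 and was -1 with the best-ranked 5000 regions. The covered length differed by -5.11 kb, from -10.4 kb without the sparse pair to 0.206 kb without the dense pair, and by -16.4 kb with any region within 100 kb. The number of matched regions assigned to the genes went from 0 at 90% to 3 at 50% mutual cover. The median rank in sgNT was 64.4% of the table and 48.3% when density was ranked. With any region within 100 kb the sparse differences of FOSB and JUND became -2 and -1. Without subtraction of the median the log2 ratios upstream of FOS and NR4A1 were -0.20 and -0.19, below 0. Of the other values 34 single-gene values moved and 100 kept their direction and size. Differences were taken within the pairs of tables, and no paired test was made, since which sample a table came from is not resolved. Unknown depth limits every absence of a region, and in the sparse pair so does the unequal share of called peaks that was listed.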

Other observations

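The stretch of chromosome 14 that holds FOS also holds JDP2 and BATF, 2 further AP-1 zipper genes. JDP2 (chr14:75426943-75474107) carried a region of 32557 bp with 9 peaks, 0.874 per bp and rank 705 of 15149 in dense sgNT (chr14:75435131-75467687). In dense sgSETD8 it had 32405 bp, 10 peaks, 0.578 per bp and rank 989 of 18061 (chr14:75435172-75467576), with nearly the same borders. These densities are given without subtraction of the median. Over the 1769 dense regions with 90% mutual cover the median log2 ratio was -0.26, so a lower density in sgSETD8 was the common direction. Upstream of it dense sgNT listed 3 smaller JDP2 regions and dense sgSETD8 listed 1.

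BATF, which pairs with JUN proteins in lymphoid cells, had an intronic region in sparse sgNT (chr14:75542244-75543251) that lies inside a dense sgNT region (chr14:75539973-75543523, 0.928 per bp). The dense sgSETD8 region there was shorter (chr14:75541874-75543249, 1376 bp, 0.986 per bp). A region over the BATF start (chr14:75522035-75525323, 0.955 per bp, rank 5378) was listed in dense sgNT, and no dense sgSETD8 region overlapped it. Sparse sgSETD8 listed no region at BATF. Dense sgSETD8 listed a further BATF region (chr14:75496703-75497581, 0.775 per bp) that no dense sgNT region overlapped, so each dense table assigned 2 regions to BATF. As at JUN and JUND, a start site lay in a dense sgNT region and in no dense sgSETD8 region. Promoter windows did so for 2.21% of 15843 protein-coding genes, and the reverse held for 3.76%. The BATF pattern was noticed after the data had been seen and was not tested.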
